A study of Neurospora crassa with 12 samples.

Results

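Phosphate (Pi) availability was varied in 2 strains of the filamentous fungus *Neurospora crassa*, and the strain by Pi interaction asks, gene by gene, whether both strains responded to Pi in the same way. It is the change of a gene between high-Pi and low-Pi in *mus-52* minus the same change in the wild type. A negative interaction therefore means that the gene was lower in high-Pi relative to low-Pi in *mus-52* than in the wild type, and a positive interaction means the reverse. All 12 libraries of the series entered the contrast, and 7746 of the 9730 genes in the tables had enough counts to be tested.

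The groups of 3 libraries each were the *mus-52*::*hyg* strain (mating type a) in high-Pi and in low-Pi, and wild-type 74A (mating type A) in high-Pi and in low-Pi. High-Pi was 10 mM Pi and low-Pi was 10 µM Pi, and in all 4 groups RNA was taken from conidia left to germinate over 5 h (30 °C). The replicates I, II and III of a group are biological triplicates. Each strain is a single isolate, so that the disruption of *mus-52*, the mating type and any other difference between the isolates cannot be told apart.

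When Pi is scarce, the transcription factor NUC-1 of *N. crassa* switches on genes for secreted phosphatases and Pi permeases, and when Pi is sufficient the cyclin PREG and its kinase partner keep NUC-1 out of the nucleus. NUC-2 acts upstream of this pair and relays the shortage. *mus-52* encodes the fungal Ku80, which binds broken DNA ends in non-homologous end joining together with Ku70, before DNA ligase IV (MUS-53) seals the break.

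The libraries held 17574263 to 56152963 counted reads, and levels are given as CPM, counts scaled to library size with edgeR's TMM factors. *mus-52* itself (NCU00077) had 1344, 513 and 831 counts in the high-Pi libraries labelled *mus-52* and 970, 567 and 487 in the low-Pi ones, against 3246, 609 and 465 counts in the wild type in high-Pi and 843, 389 and 433 in low-Pi. The disrupted gene was thus counted in all groups and went against the label. Below, *mus-52* high-Pi and *mus-52* low-Pi stand for the libraries labelled so, and which part of the gene the reads covered was not tested. The pheromone genes did separate the strains, since *ccg-4* (NCU02500) had 1 to 10 counts in the libraries labelled *mus-52* and 577 to 3981 in the wild type, and *mfa-1* (NCU16992) had 16634 to 151717 and 100 to 390 counts. In both media the wild-type replicate I was unlike the other 2, with correlations of log2 CPM to replicates II and III of 0.931 to 0.951, while those of all other pairs of replicates were 0.988 to 0.993. Results are therefore also given without these 2 libraries.

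The interaction was negative for nearly all of the genes that passed the test. With an adjusted p of at most 0.05 and an interaction of at least 1.5 on the log2 scale (2.8-fold) in either direction, 307 genes were called, which is 3.96% of those tested (quasi-likelihood test of edgeR, Benjamini-Hochberg adjustment over all genes, as for every adjusted p below). Of these, 297 (3.83%) had a negative and 10 (0.129%) a positive interaction. The 185 genes that the study lists as potentially under mating-type control were tested but not counted. Of these, 22 passed both thresholds in the negative and 1 in the positive direction. They include members of lists used below, such as ribosome biogenesis, heat shock and transporter genes, which thus could not be counted as calls. Without both wild-type replicates I the counts were 332 negative (4.25%) and 47 positive (0.602%), and 245 of the 307 genes were called again. The median interaction over all genes was 0.06, on libraries that TMM scaling centres on each other.

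Across all 7746 genes the Pi response in *mus-52* had a Pearson's r of -0.39 and a Spearman's rho of -0.328 with that in the wild type, given as a description since genes are not independent replicates. Only 39.5% of the genes had the same sign in both strains. Without both wild-type replicates I, r was -0.133, rho was -0.0445 and 49.2% of 7804 genes had the same sign, so the correlation over all genes was mostly lost without these libraries.

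**Figure D1:**
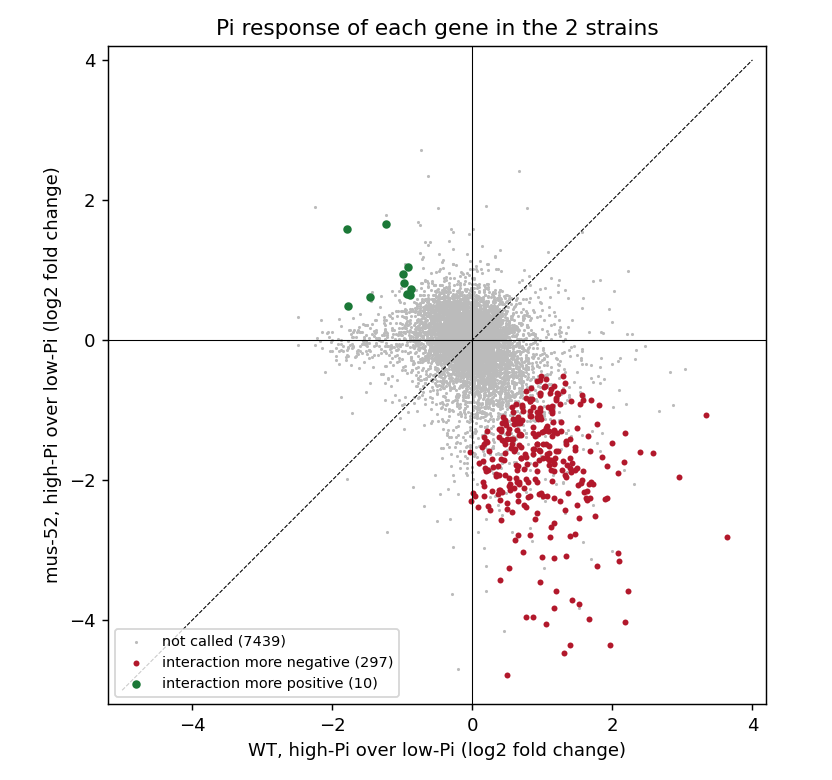
Pi response of each of the 7746 genes tested, as the log2 fold change of high-Pi over low-Pi in the wild type (horizontal axis) and in *mus-52* (vertical axis). Genes on the dashed line responded alike in both strains. The 297 genes with a negative interaction lie at the lower right and the 10 with a positive one at the upper left.

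Most negative calls ran in opposite directions in the 2 strains. At a limit of 1.5-fold, 219 of the 297 genes (73.7%) were lower in high-Pi in *mus-52* and higher in high-Pi in the wild type. Another 73 (24.6%) were past 1.5-fold only in *mus-52*, where all of them were lower in high-Pi, and 5 (1.68%) were past it only in the wild type. Over all genes tested with an interaction below 0, the 3 classes held 11.6%, 19.6% and 9.28%. The classes describe the calls and were not tested, because the interaction that chose the genes is made of the same fold changes. With a limit of 2-fold the classes held 108, 148 and 23 genes, and 18 were past it in neither strain.

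Among these genes the fall in *mus-52* was larger than the rise in the wild type. The median response of the 297 genes was -1.68 in *mus-52* and 0.93 in the wild type on the log2 scale, against -0.01 and -0.05 over all genes. In high-Pi relative to low-Pi, 227 of them were lower in *mus-52* with an adjusted p of at most 0.05, which 4.71% of all genes reached in either direction, and 24 were higher in the wild type, which 0.478% of all genes reached in either direction. With the fold limit as well, 159 were lower in *mus-52* (2.58% of all genes tested) and 13 were higher in the wild type (0.207%). High-Pi and low-Pi libraries did not overlap for 289 of the 297 genes in *mus-52*, for 192 in the wild type and for 184 in both strains, against 46.5%, 12.7% and 7.14% of all genes tested. These counts describe the calls and are no separate support, because the interaction that chose the genes is made of the same responses. Without both wild-type replicates I, the median wild-type response of the 297 genes was 0.58 and it stayed above 0 for 257 of them.

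Seen across the 4 groups, the highest mean was in *mus-52* low-Pi for 155 of the 297 genes and in wild-type high-Pi for 142, and the lowest was in *mus-52* high-Pi for 223 and in wild-type low-Pi for 74. The group farthest from the median of the other three was *mus-52* high-Pi for 146 genes, *mus-52* low-Pi for 105, wild-type high-Pi for 33 and wild-type low-Pi for 13. Between strains, 153 genes were more than 1.5-fold higher in *mus-52* in low-Pi and more than 1.5-fold lower in *mus-52* in high-Pi. A further 69 were close in low-Pi and lower in *mus-52* in high-Pi, and 45 were higher in *mus-52* in low-Pi and close in high-Pi. Another 29 were lower in *mus-52* in both media. In this order, the classes made up 51.5%, 23.2%, 15.2% and 9.76% of the negative calls. Over all genes tested with an interaction below 0, their shares were 6.38%, 17.5%, 16.2% and 21%. These classes too describe the calls and were not tested. With the adjusted p and the fold limit of 1.5 on the log2 scale, 162 of the 297 were lower in *mus-52* than in the wild type in high-Pi (11.7% of all genes tested) and 91 were higher in low-Pi (5.84%). For 55 genes (18.5%, against 33.8% of all genes tested) the level in *mus-52* low-Pi was within 1.5-fold of that in wild-type high-Pi and the level in *mus-52* high-Pi within 1.5-fold of that in wild-type low-Pi.

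**Figure D2:**
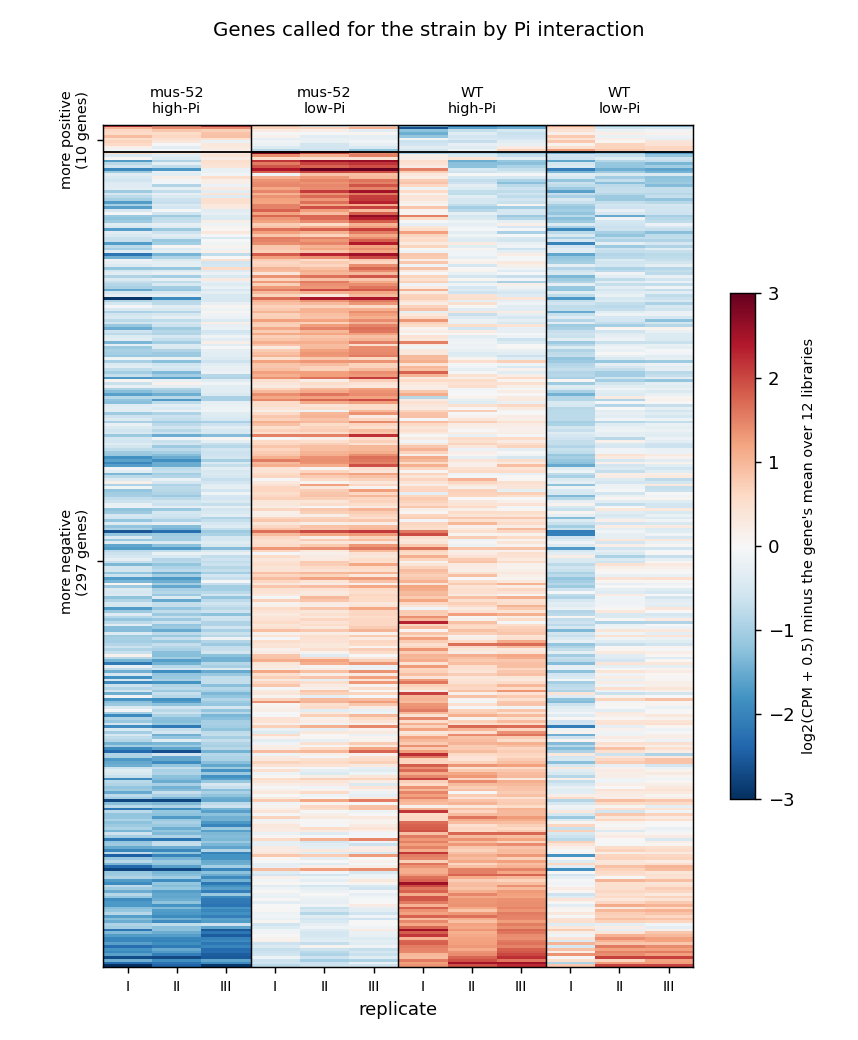
Levels of the 307 called genes in the 12 libraries, as log2(CPM + 0.5) minus the mean of the gene over all libraries (color). Columns are replicates I, II and III of each group, and rows are ordered within each direction from genes higher in *mus-52* to genes higher in the wild type. Nearly all rows of the 297 negative calls are low in *mus-52* high-Pi, and the high levels pass from *mus-52* low-Pi at the top of the block to wild-type high-Pi at its foot.

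In 8 genes the response passed both thresholds in each strain taken alone, and in all 8 it was a fall in *mus-52* and a rise in the wild type. The largest interaction among them was that of NCU07752, a hypothetical protein gene on chromosome V (419047 to 420166 of the NC12 assembly). NCU07752 had 9.41, 9.19 and 12.3 CPM in *mus-52* in high-Pi, against 77.1, 81.6 and 95.0 in low-Pi. In the wild type it had 98.6, 55.7 and 56.9 CPM in high-Pi, against 9.19, 20.4 and 20.4 in low-Pi. The media did not overlap in either strain, and *mus-52* low-Pi overlapped with wild-type high-Pi. Its interaction was -5.12 (standard error 0.464, edgeR adjusted p = 0.000198), from a log2 fold change of -3.04 in *mus-52* and 2.08 in the wild type.

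NCU07791 (chromosome V, 276568 to 278958) and NCU03430 (chromosome II, 744721 to 745936), both hypothetical protein genes, shared the smallest adjusted p of all interactions. NCU07791 had 28.2, 26.7 and 28.2 CPM in *mus-52* high-Pi, against 116, 110.3 and 148 in *mus-52* low-Pi. Its wild-type levels were 105, 93.2 and 76.5 CPM in high-Pi, against 27.8, 30.3 and 33.1 in low-Pi. The gene had about the same level in *mus-52* high-Pi and in wild-type low-Pi. Its interaction was -3.77 (standard error 0.245, edgeR adjusted p = 4.21e-05), and over the fits that left out 1 library it ranged from -3.83 to -3.55. NCU03430 had 10.7, 8.78 and 13.7 CPM in *mus-52* high-Pi and 50.6, 53.8 and 55.1 in *mus-52* low-Pi, and 45.5, 30.6 and 35.4 CPM in wild-type high-Pi and 9.84, 9.51 and 9.94 in wild-type low-Pi. Here too the media were apart in both strains, with an interaction of -4.19 (standard error 0.290, edgeR adjusted p = 4.21e-05).

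NCU00322 (chromosome III, 3447697 to 3448818), a hypothetical protein gene, crossed around a higher level in the wild type. It had 16.6, 20.7 and 15.7 CPM in *mus-52* high-Pi, against 63.5, 63.2 and 57.1 in *mus-52* low-Pi. The wild type had 167, 118 and 110.6 CPM in high-Pi, against 33.6, 39.5 and 31.3 in low-Pi. All 4 groups were apart from each other, and the interaction was -3.72 (standard error 0.275, edgeR adjusted p = 5.81e-05).

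NCU09570, named a glutathione transferase, an enzyme class that couples glutathione to reactive compounds, had 2.90, 2.17 and 2.54 CPM in *mus-52* high-Pi, against 11.2, 12.5 and 12.8 in *mus-52* low-Pi. Its wild-type levels were 10.7, 7.11 and 5.73 CPM in high-Pi, against 2.54, 2.19 and 2.88 in low-Pi. The low groups of both strains overlapped, and the interaction was -3.89 (standard error 0.357, edgeR adjusted p = 0.000198). The span of NCU09570 overlaps another annotated gene, so its count may hold reads of both. The remaining 3 of the 8 genes, NCU03541, NCU06514 and NCU07180, had interactions of -3.27, -3.71 and -3.79 and reached at most 7.43 CPM in any library. The 8 genes were called in all 12 fits that left out 1 library and in all other alternatives tried.

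**Figure D3:**
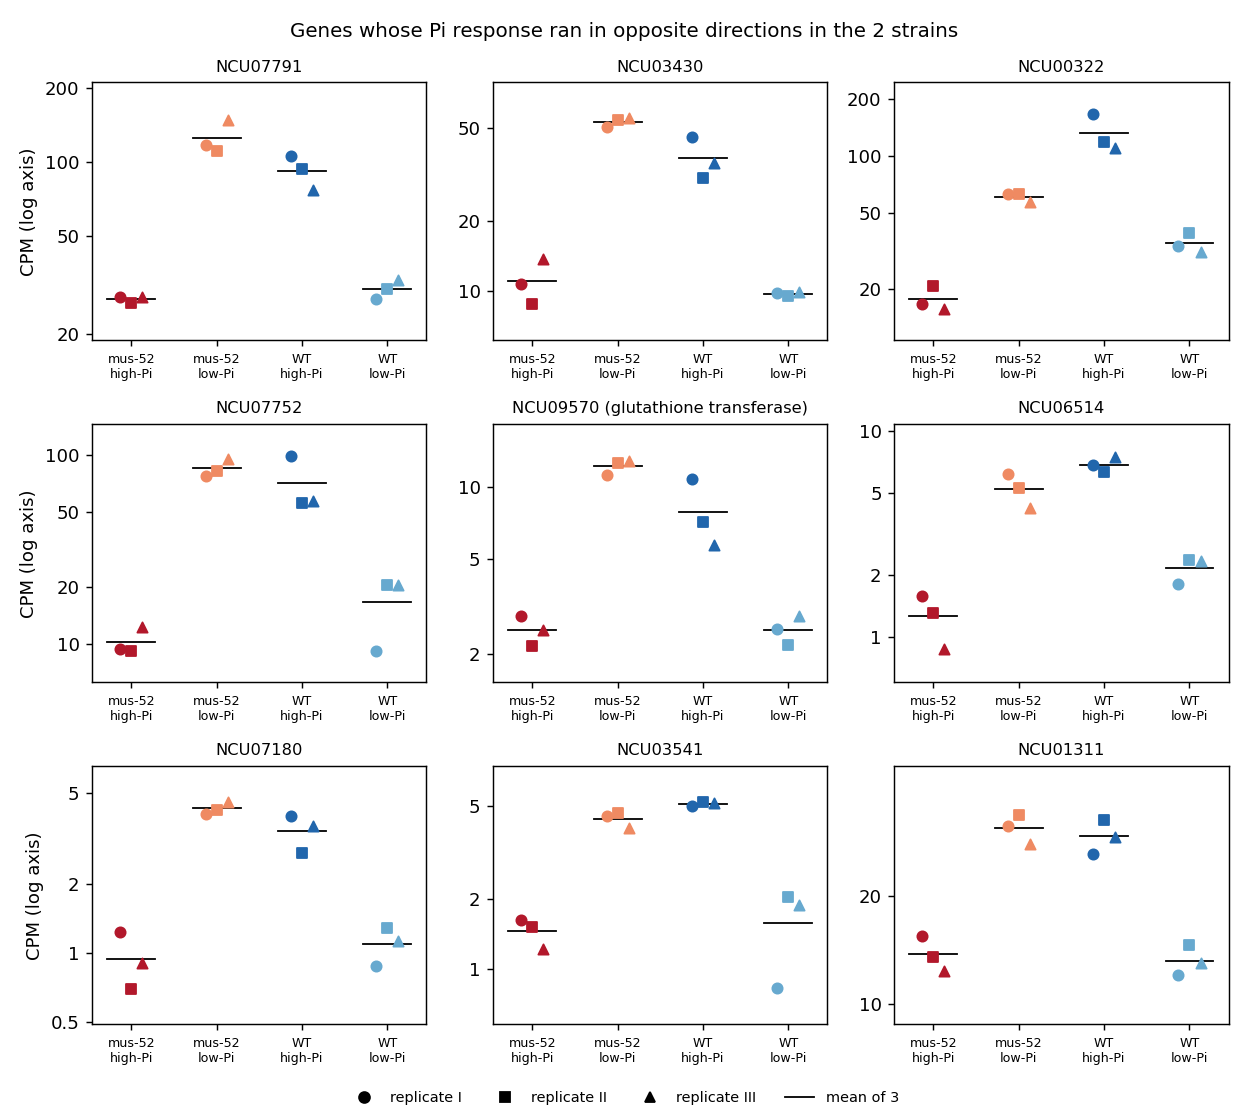
Levels in CPM (log axis) of the 8 genes called in both strains and of NCU01311, whose interaction was -2.32, in each library. Points are replicates, with their shape giving the replicate number, and lines are means of 3. In every panel *mus-52* high-Pi and wild-type low-Pi are the 2 low groups and *mus-52* low-Pi and wild-type high-Pi the 2 high ones.

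At the limit of 1.5-fold, a smaller set of 73 genes fell in *mus-52* and stayed under the limit in the wild type. At 2-fold this set was the larger, with 148 genes against 108 in opposite directions. For 17 of the 73 genes the wild-type media did not overlap, as in both examples that follow. NCU05707 (chromosome III, 584541 to 585538) had 0.249, 0.0820 and 0.164 CPM in *mus-52* high-Pi, against 4.16, 4.10 and 6.89 in *mus-52* low-Pi. The wild type had 1.17, 0.911 and 1.08 CPM in high-Pi, against 0.647, 0.855 and 0.764 in low-Pi. The wild-type groups thus lay between the 2 *mus-52* groups, and the interaction of -5.28 (standard error 0.507, edgeR adjusted p = 0.000232) came from a log2 fold change of -4.78 in *mus-52* and 0.50 in the wild type. Levels of NCU05707 in *mus-52* high-Pi were near the detection limit, so the size of this fall is uncertain. In replicate II, 0.0820 CPM was under the 0.123 CPM that 3 counts came to. NCU06358 (chromosome IV, 2795914 to 2798939) had 10.9, 9.89 and 13.6 CPM in *mus-52* high-Pi and 42.3, 43.7 and 45.3 in *mus-52* low-Pi, and 18.7, 19.7 and 18.2 CPM in wild-type high-Pi and 12.1, 14.6 and 14.2 in wild-type low-Pi. Its interaction was -2.40 (standard error 0.234, edgeR adjusted p = 0.000232). Of the 73 genes of this kind, 39 kept a wild-type response above 0 without both wild-type replicates I, where their median wild-type response was 0.02, against 213 of 219 and a median of 0.75 for the genes that ran in opposite directions. Of these 219 genes, 142 were still past 1.5-fold in the wild type in that fit, and of its own 332 negative calls 181 (54.5%) ran in opposite directions.

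Among the largest interactions of genes with a product name were those of *clr-2* and *gh61-5*. *clr-2* (NCU08042, chromosome IV, 4001190 to 4004643) encodes a transcription factor that is needed for cellulase expression in *N. crassa*. It had 2.32, 4.43 and 4.69 CPM in *mus-52* high-Pi, against 20.2, 23.6 and 22.4 in *mus-52* low-Pi. Wild-type levels of *clr-2* were 9.36, 3.34 and 3.77 CPM in high-Pi, against 1.80, 2.30 and 1.75 in low-Pi. *mus-52* low-Pi stood above every other library, and within the wild type replicate I of high-Pi was the highest. The interaction was -4.06 (standard error 0.562, edgeR adjusted p = 0.002), and -3.35 without both wild-type replicates I (adjusted p = 1.52e-05).

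*gh61-5* (NCU08760), which encodes a secreted enzyme of the glycosylhydrolase 61 family that cuts cellulose by oxidation, was also highest in *mus-52* low-Pi. It had 15.8, 20.8 and 32.6 CPM in *mus-52* high-Pi and 136, 182 and 168 in *mus-52* low-Pi, against 99.7, 34.8 and 37.2 CPM in wild-type high-Pi and 20.2, 31.4 and 28.2 in wild-type low-Pi. All 3 libraries of *mus-52* low-Pi were above the other 9, and the interaction was -3.92 (standard error 0.579, edgeR adjusted p = 0.0028). The wild-type side rested on replicate I, since the wild-type response was 1.11 with all libraries and 0.26 without both replicates I, while the interaction then was -3.06 (edgeR adjusted p = 0.000586).

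Of 64 glycosyl hydrolase genes tested, 3 had a negative call (*gh61-5*, *gh61-11* at -3.23 and *gh7-1* at -1.64), a share near the 3.83% of all genes tested, and the median interaction of the list was -0.18. *gh61-11* (NCU07520) had 2.32 to 3.33 CPM in *mus-52* low-Pi and at most 1.25 CPM in any other library, and it was called in 3 of the 12 fits that left out 1 library. The third gene, *gh7-1* (NCU05057), had 7.52, 7.10 and 9.51 CPM in *mus-52* high-Pi, 17.1, 18.3 and 19.2 in *mus-52* low-Pi, 13.9, 7.90 and 8.93 in wild-type high-Pi and 6.28, 8.55 and 7.55 in wild-type low-Pi. Its interaction without both wild-type replicates I was -1.21, under the fold limit. In a list of 19 tested genes, most of them for transcription factors with a symbol, *clr-2* was the only one called. Over all genes tested 3.96% were called, and the median interaction of the list was 0.15. The list also holds the enzyme genes *nit-3* and *nit-6*, and it is not a complete set of transcription factors.

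NCU03921, named the mitochondrial chaperone bcs1, had the most negative interaction of the genes with a product name. Its counterpart in yeast inserts the iron-sulfur protein into respiratory complex III. NCU03921 (chromosome VI, 2138394 to 2141840) had 31.0, 36.1 and 103 CPM in *mus-52* high-Pi, against 647, 941 and 1168 in *mus-52* low-Pi. The wild type had 343, 87.5 and 73.4 CPM in high-Pi, against 28.4, 43.5 and 39.7 in low-Pi. The media were apart in both strains, and replicate I of wild-type high-Pi lay between the other wild-type libraries and *mus-52* low-Pi. The interaction was -6.19 (standard error 0.906, edgeR adjusted p = 0.00267), and -4.94 without both wild-type replicates I (edgeR adjusted p = 0.00681). Its annotated span overlaps another gene, so its count is uncertain.

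NCU09964, a gene without a product name on chromosome V (6058227 to 6058877), had an interaction of -6.31 (standard error 0.760, edgeR adjusted p = 0.000833). It had 0.107, 0.0820 and 0.545 CPM in *mus-52* high-Pi, against 3.46, 5.06 and 6.83 in *mus-52* low-Pi. In the wild type the levels were 6.08, 6.26 and 5.52 CPM in high-Pi, against 1.02, 2.19 and 1.39 in low-Pi. The gene was near the detection limit only in *mus-52* high-Pi.

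The laccase gene *lacc* (NCU04528, chromosome VII, 1565531 to 1568002), for a secreted copper enzyme that oxidizes phenols, had 5.10, 10.8 and 29.5 CPM in *mus-52* high-Pi, against 134, 229.6 and 229.2 in *mus-52* low-Pi. Its wild-type levels were 68.1, 59.4 and 54.4 CPM in high-Pi, against 12.3, 28.8 and 26.4 in low-Pi. The media were apart in both strains, and the interaction was -5.14 (standard error 0.780, edgeR adjusted p = 0.00313). *ci-1* (NCU05001), a gene named for its induction by cycloheximide, had 58.5, 73.8 and 96.8 CPM in *mus-52* high-Pi and 341, 528 and 706 in *mus-52* low-Pi, against 187, 73.9 and 71.9 CPM in wild-type high-Pi and 39.2, 76.4 and 73.3 in wild-type low-Pi. Its wild-type response was -0.05 without both replicates I, so only the fall in *mus-52* remained in an interaction of -2.71 (-3.60 with all libraries, edgeR adjusted p = 0.00545).

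**Figure D4:**
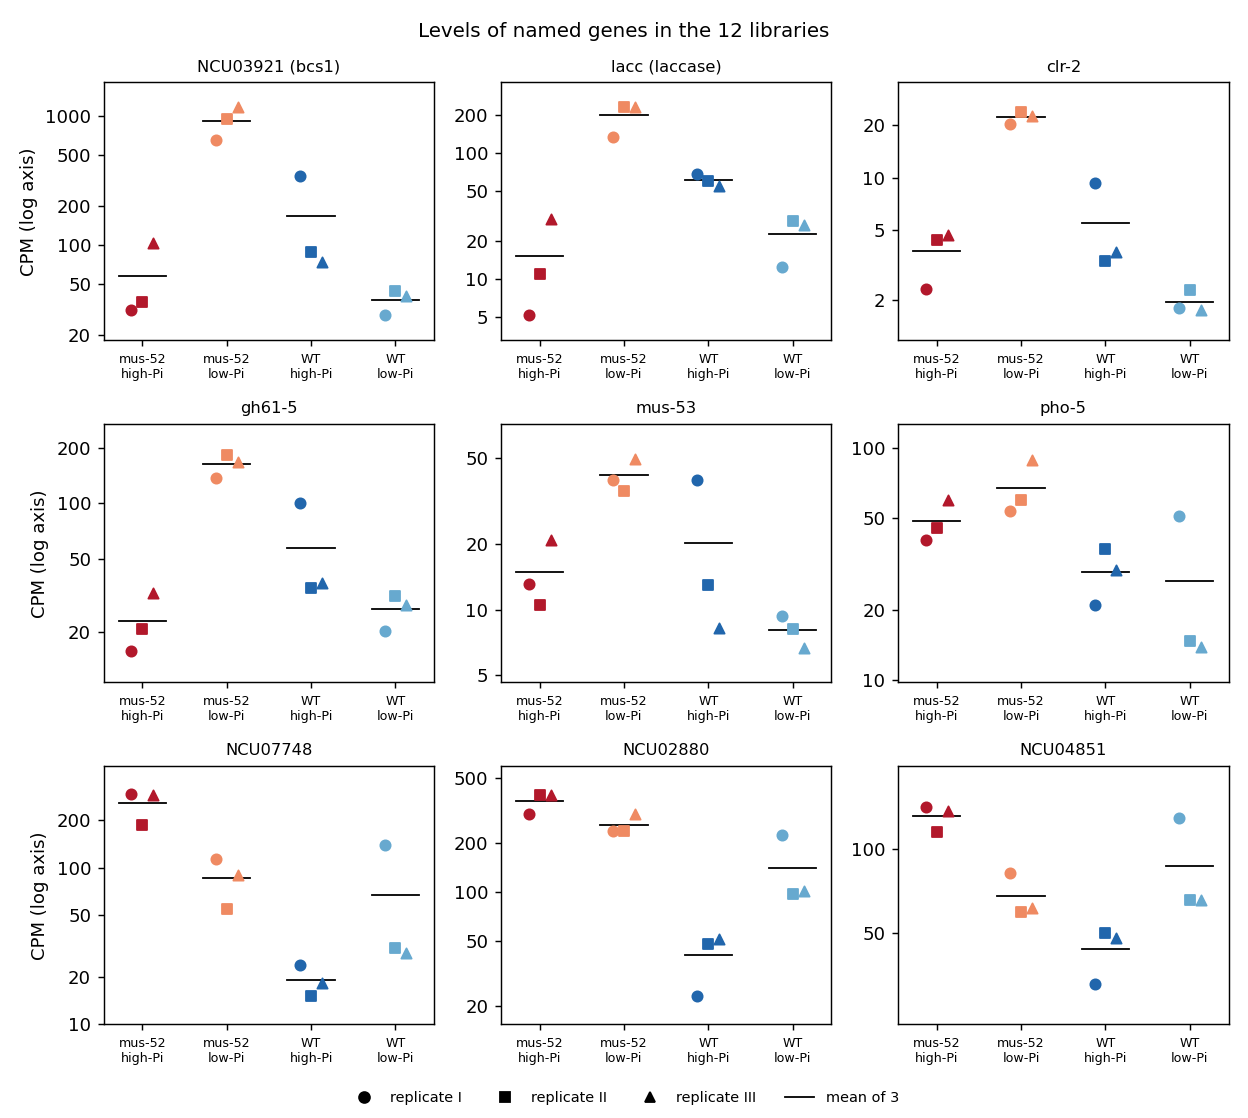
Levels in CPM (log axis) of 9 named genes in each library, with replicates as points whose shape gives the replicate number and means of 3 as lines. For NCU03921, *lacc*, *clr-2* and *gh61-5* all 3 libraries of *mus-52* low-Pi are above every other library. In *pho-5* and in the 3 genes of the lowest row, replicate I of wild-type low-Pi lies above its replicates II and III.

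Of 24 *mus* and related repair genes tested, 1 was called, a share near the 3.96% of all genes tested, and the median interaction of the list was 0.04. It was *mus-53* (NCU06264), the gene of DNA ligase IV, with 13.1, 10.5 and 20.96 CPM in *mus-52* high-Pi, against 39.7, 35.3 and 49.8 in *mus-52* low-Pi. Wild-type *mus-53* had 39.5, 13 and 8.20 CPM in high-Pi, against 9.38, 8.12 and 6.66 in low-Pi. Its media were apart in *mus-52* and overlapped in the wild type, where replicate I of high-Pi was at least 3 times every other wild-type library, and the interaction was -2.82 (standard error 0.689, edgeR adjusted p = 0.0358). Without both wild-type replicates I it was -1.96 (edgeR adjusted p = 0.00919), and it was called in 5 of the 12 fits that left out 1 library. *mus-52* itself had an interaction of -0.91 (edgeR adjusted p = 0.392), with 23.95, 21.04 and 22.7 CPM in *mus-52* high-Pi, 24.3, 21.9 and 27.1 in *mus-52* low-Pi, 75.9, 37.0 and 23.99 in wild-type high-Pi and 38.9, 20.8 and 19.5 in wild-type low-Pi.

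NCU03649, a hypothetical protein gene, and its neighbour *rad16* (NCU03650, singled out after its values were seen), whose yeast counterpart acts in nucleotide excision repair, were both called. NCU03649 had 12.8, 13.1 and 19.8 CPM in *mus-52* high-Pi and 37.0, 44.5 and 46.6 in *mus-52* low-Pi, against 14.6, 12.1 and 10.4 in wild-type high-Pi and 7.39, 9.78 and 9.67 in wild-type low-Pi. For *rad16* the levels were 16.1, 13.5 and 20.2 CPM in *mus-52* high-Pi and 43.3, 46.4 and 59.5 in *mus-52* low-Pi, against 27.4, 32.7 and 21.7 in wild-type high-Pi and 15.7, 14.1 and 11.96 in wild-type low-Pi. The media were apart in both strains for both genes. Their interactions were -1.96 (edgeR adjusted p = 0.00455) and -2.56 (edgeR adjusted p = 0.000921).

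The lists of transporters, kinases and clock genes came from tables that the study made on these samples. Of 34 transporter genes 3 had a negative call, against 3.83% of all genes tested, with a median interaction of -0.35 over the list. The sugar transporter NCU07607 had 12.99, 8.61 and 5.56 CPM in *mus-52* high-Pi, against 21.8, 23.6 and 26.9 in *mus-52* low-Pi. Its wild-type levels were 57.5, 52.7 and 41.6 CPM in high-Pi, against 11.3, 24.2 and 22.2 in low-Pi, and the interaction was -2.80 (edgeR adjusted p = 0.00545). The highest group was thus wild-type high-Pi, while both low-Pi groups overlapped. The high-affinity glucose transporter NCU04963 (-2.38) and the ATP-binding cassette transporter NCU10009 (-2.60) were instead highest in *mus-52* low-Pi, with 84.7 to 111 and 262 to 396 CPM there and at most 53.9 and 121 CPM in any other library. They were called in 6 and 4 of the 12 fits that left out 1 library.

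Several metabolic enzymes differed in which group stood out. NCU05616, named an arsenite S-adenosylmethyltransferase, an enzyme that methylates arsenite, had 26.5, 30.2 and 22.7 CPM in *mus-52* high-Pi, against 63.5, 60.6 and 74.0 in *mus-52* low-Pi. In wild-type high-Pi it had 69.3, 154 and 157 CPM, against 21.5, 30.1 and 31.9 in wild-type low-Pi. Here replicate I was the lowest of wild-type high-Pi, and the interaction was -3.50 with all libraries (standard error 0.411, edgeR adjusted p = 0.000747) and -3.61 without both wild-type replicates I. NCU06803, a glutamate decarboxylase, which makes gamma-aminobutyrate, had 1.301, 1.48 and 1.17 CPM in *mus-52* high-Pi and 4.08, 3.71 and 4.28 in *mus-52* low-Pi, against 14.9, 5.22 and 2.48 in wild-type high-Pi and 1.53, 1.12 and 1.17 in wild-type low-Pi. The spread in wild-type high-Pi was the widest of its groups, and its interaction was -4.19 (standard error 0.731, edgeR adjusted p = 0.00634).

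Carbonic anhydrase (NCU04778), which interconverts carbon dioxide and bicarbonate, had 2.01, 2.75 and 2.81 CPM in *mus-52* high-Pi and 10.5, 13.6 and 17.8 in *mus-52* low-Pi, against 5.24, 2.92 and 2.06 in wild-type high-Pi and 1.71, 1.55 and 2.16 in wild-type low-Pi. The wild-type media overlapped, *mus-52* low-Pi was above all other libraries, and the interaction was -3.40 (standard error 0.487, edgeR adjusted p = 0.00239). The opposite order was found for the oxidoreductase NCU09821, with 27.1, 22.9 and 20.4 CPM in *mus-52* high-Pi and 80.6, 66.6 and 79.4 in *mus-52* low-Pi, against 293, 269.9 and 243 in wild-type high-Pi and 82.8, 140.2 and 132 in wild-type low-Pi. Wild-type high-Pi was highest and *mus-52* high-Pi lowest, and the interaction was -2.87 (standard error 0.2998, edgeR adjusted p = 0.000345).

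The 2 kinase genes called out of 24 (3.96% of all genes tested were called) were NCU07626, a gluconokinase, at -2.28, and NCU02712, an acetate kinase, at -1.83. NCU02712 was under the fold limit without both wild-type replicates I (-1.37) and with voom (-1.45). NCU07626 had 0.463, 0.246 and 0.409 CPM in *mus-52* high-Pi and 1.20, 0.812 and 0.889 in *mus-52* low-Pi, against 7.34, 9.66 and 7.58 in wild-type high-Pi and 3.37, 3.74 and 5.67 in wild-type low-Pi. Both strains moved with Pi in opposite directions around levels that never overlapped between the strains. Of 27 genes of the study's clock list, 3 were called, NCU06977 (-3.93), NCU02596 (-2.74) and NCU01555 (-2.02), against 3.96% of all genes tested, and the list's median was 0.17. NCU06977 had 5.77 to 6.76 CPM in *mus-52* high-Pi and 26.6 to 33.3 in *mus-52* low-Pi, against 53.5, 14.3 and 14.7 in wild-type high-Pi and 2.96, 11.2 and 12.5 in wild-type low-Pi. The wild-type response of NCU06977 was 1.64 with all libraries and 0.28 without both replicates I, where the interaction was -2.54.

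The 5 negative calls past 1.5-fold only in the wild type were NCU02513, NCU04996, NCU05165, NCU07897 and NCU10393, named here after their values were seen, with interactions of -1.50 to -1.82. NCU02513 had 53.6, 38.9 and 33.6 CPM in *mus-52* high-Pi and 65.5, 54.3 and 66.7 in *mus-52* low-Pi, against 159, 165 and 140.4 in wild-type high-Pi and 52.7, 83.5 and 88.04 in wild-type low-Pi. None of the 5 was called in more than 7 of the 12 fits that left out 1 library.

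The positive direction held few genes, and 1 of the 10 was called in all 12 fits that left out 1 library, against 157 of the 297 negative ones. Of the 10, 9 were past 1.5-fold in opposite directions, with a median response of 0.77 in *mus-52* and -0.98 in the wild type. Over all genes tested with an interaction above 0, 1.35% ran in opposite directions. At 2-fold 2 of the 10 did so, and 5 were past the limit in neither strain. Without both wild-type replicates I, 18 of 47 positive calls ran in opposite directions and 24 were past 1.5-fold only in the wild type. None of the 10 reached an adjusted p of 0.05 for the response within either strain, and none has a product name or symbol in the sources used here beyond hypothetical protein. The largest was NCU07748 (chromosome V, 435472 to 436752), with 294, 187 and 291.5 CPM in *mus-52* high-Pi, against 114, 54.7 and 89.0 in *mus-52* low-Pi. It had 23.9, 15.1 and 18.4 CPM in wild-type high-Pi, against 139.9, 30.7 and 28.3 in wild-type low-Pi. The media did not overlap in either strain, and replicate I of wild-type low-Pi was far above II and III. The interaction was 3.37 (standard error 0.782, edgeR adjusted p = 0.0286), and 2.43 without both wild-type replicates I (edgeR adjusted p = 0.00797).

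NCU02880 (chromosome I, 8823648 to 8824866) had 299, 389.9 and 393 CPM in *mus-52* high-Pi and 237, 236 and 302 in *mus-52* low-Pi, which overlapped, against 23.2, 48.0 and 51.6 in wild-type high-Pi and 224, 96.8 and 101 in wild-type low-Pi, which did not. Its interaction was 2.26 (standard error 0.512, edgeR adjusted p = 0.0259). NCU01061, NCU06384 and NCU08432 were also called by DESeq2 and without both wild-type replicates I, at 1.78, 1.60 and 2.07 with all libraries, from levels of at most 4.79 CPM in any group mean. With replicate I left out of all 4 groups, NCU01061 (1.71, edgeR adjusted p = 0.0502) and NCU08432 (1.37, edgeR adjusted p = 0.125) were not called. NCU04851, singled out because it was the only positive call kept in all 12 fits that left out 1 library, had 141, 115 and 136 CPM in *mus-52* high-Pi and 81.7, 59.3 and 61.4 in *mus-52* low-Pi, against 32.9, 50.1 and 48.0 in wild-type high-Pi and 129, 65.3 and 65.3 in wild-type low-Pi. Its interaction was 1.94 (edgeR adjusted p = 0.0149), and 1.40 without both wild-type replicates I, under the fold limit.

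No gene of Pi sensing or Pi acquisition was called, in lists so short that the 3.96% called over all genes tested would give fewer than 1 call. All 5 sensing genes were tested, *nuc-1*, *nuc-2*, *preg*, its kinase partner *mdk-1* and the MAP kinase gene *mak-2*, and their interactions were 0.19, 0.16, 0.46, 0.40 and -0.15, with a median of 0.19. Of 6 acquisition genes, *pho-4*, for a Pi permease, had 0 counts in all 12 libraries, which allows up to 0.0534 to 0.182 CPM per library for counting error alone. The actin gene *act* (NCU04173), which every cell uses, had 0 or 1 count per library, so a 0 in these tables may also be a loss in counting, and no level is drawn from it for *pho-4*. The other 5 had a median interaction of -0.32, with *pho-3* at 1.05, *pho-2* at 0.69, NCU07465 at -0.63, *pho-5* at -0.61 and NCU01747 at -0.32. With edgeR's quasi-likelihood test, no sensing gene and 1 acquisition gene, *pho-2*, had an unadjusted p under 0.05. DESeq2 called none of the 10 genes, and limma voom with sample weights called *pho-5* alone.

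The alkaline phosphatase gene *pho-2* (NCU01376) had 9.34, 8.98 and 10.03 CPM in *mus-52* high-Pi and 6.64, 6.30 and 6.78 in *mus-52* low-Pi, against 7.32, 8.20 and 6.24 in wild-type high-Pi and 6.42, 9.67 and 8.27 in wild-type low-Pi. In *mus-52* the media were apart with the higher level in high-Pi, and in the wild type they overlapped. The Pi permease gene *pho-5* (NCU08325) had 40.2, 45.3 and 59.8 CPM in *mus-52* high-Pi and 53.5, 60.1 and 89.1 in *mus-52* low-Pi, against 21.1, 36.9 and 30.0 in wild-type high-Pi and 51.3, 14.8 and 13.98 in wild-type low-Pi. Replicate I of wild-type low-Pi was the highest wild-type library. Its interaction was -0.61 with all libraries (edgeR adjusted p = 0.652) and -1.66 without both wild-type replicates I (edgeR adjusted p = 0.00439), past both limits. Neither strain had a called Pi response in any of the 10 genes, so these genes gave no check of the labels of the media. The media are taken as labelled, and no other check of them was made. The sign and the size of every interaction, and so the calls and the pattern classes, rest on these labels.

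Ribosome biogenesis genes moved with a single library. All 70 of them had a positive interaction, with a median of 1.44, but none was called. With edgeR's quasi-likelihood test 1 had an unadjusted p under 0.05 in that direction, against 6.8% of all genes tested. Most gene lists came from the study's tables, and they were chosen with earlier results of these data known. The shared sign of the 70 genes is therefore given as a description. DESeq2 and voom also called none. Their median response was -0.04 in *mus-52* and -1.52 in the wild type. In replicate I of wild-type low-Pi, 69 of the 70 were above replicates II and III, with a median ratio of 7.75 to the higher of these. For example NCU03321, named eukaryotic ribosome biogenesis protein 1, had 283, 317 and 328 CPM in *mus-52* high-Pi and 267, 295 and 305 in *mus-52* low-Pi, against 18.9, 36.3 and 27.96 in wild-type high-Pi and 293, 28.8 and 27.8 in wild-type low-Pi. Its interaction was 2.17 with all libraries and -0.05 without both wild-type replicates I. The median of the list without these libraries was -0.23.

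None of the 14 heat shock and chaperone genes and none of the 7 genes of replication initiation was called, nor had any of them an unadjusted p under 0.05, and DESeq2 and voom called none of them either. Their median interactions were 0.43 and 0.33. The heat shock genes differed between the wild-type replicates, with *hsp70-1* (NCU09602) at 2096 ± 72.9 CPM in *mus-52* high-Pi and 1831 ± 165 in *mus-52* low-Pi (SD, n = 3 each), against 2062, 11190 and 11770 in wild-type high-Pi and 4887, 17980 and 17010 in wild-type low-Pi. Histones (8 tested), ribosomal proteins (6), chitin synthases (4), cell wall proteins (16) and genes of acetate use (10) had no call, with median interactions of 0.20, 0.42, -0.16, 0.19 and 0.71. In these 5 lists edgeR's quasi-likelihood test gave an unadjusted p under 0.05 for 0, 0, 0, 4 and 3 genes, and DESeq2 called 0, 0, 0, 1 and 0. Of 14 conidiation genes, 2 were called, *fld* (-1.68) and *acon-3* (-1.59), against 3.96% of all genes tested, and the median was -0.17. In this list edgeR's quasi-likelihood test gave an unadjusted p under 0.05 for 4 genes in the negative and 3 in the positive direction. Of all genes tested, 12.8% and 6.8% had such a p. DESeq2 called 3 and 1 conidiation genes in these directions. The list's *al-3* and *con-6* are among the genes potentially under mating-type control and so could not be counted as calls. Without both wild-type replicates I neither *fld* (-1.44) nor *acon-3* (-1.43) reached the fold limit.

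**Figure D5:**
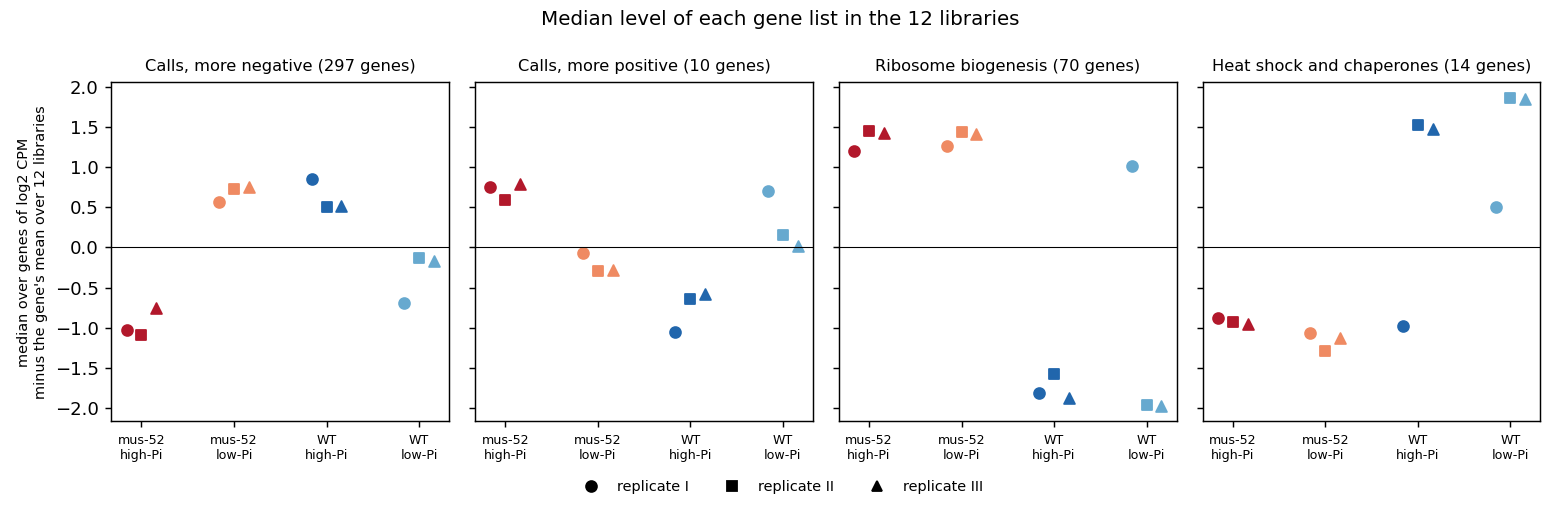
Median level of each gene list in each library, as log2 CPM minus the mean of a gene over all 12 libraries. The 297 negative calls are lowest in *mus-52* high-Pi (-1.09 to -0.76) and highest in *mus-52* low-Pi and wild-type high-Pi (0.50 to 0.86), whereas in ribosome biogenesis replicate I of wild-type low-Pi (1.02) lies with the *mus-52* libraries and the other 5 wild-type libraries lie at -1.98 to -1.58.

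The called genes also shared features that did not enter the contrast. Of the 297 negative calls, 75 (25.3%) lay directly beside another negative call on the chromosome, against 356 of the 7448 other tested genes (4.78%) that lay beside a negative call. The longest runs were 4 genes each, NCU07924, NCU07925, NCU07926 and NCU07927 on chromosome IV (1325820 to 1337876) and NCU07134, NCU07135, NCU07136 and NCU17055 on chromosome VI (26616 to 37282). The genes of these runs, NCU06265 and NCU03918 are named for their position, after their values were seen. In the first run the interactions were -2.54, -2.88, -2.17 and -2.79, and in the second they were -2.58, -2.68, -2.26 and -2.02. *mus-53* and NCU06265 (-2.52), NCU03921 and NCU03918 (-3.45), and NCU03649 and *rad16* were neighbours of this kind. Without knowledge of strand, reads from 1 gene that run into its neighbour cannot be told apart from reads of the neighbour. An overlap with another annotated gene was found for 14.7% of the calls and 24.9% of all genes tested.

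The share of tested genes with a negative call ranged from 2.63% on chromosome II to 4.90% on chromosome VI. A symbol other than the locus tag was held by 5.72% of the negative calls and 13% of all genes tested. The negative calls had a median level of 16.1 CPM over the 12 libraries, against 31.2 CPM over all genes tested, and 5.39% of them were under 1 CPM, against 9.51%. They were thus of somewhat lower level than the tested genes as a whole but not drawn from those near the detection limit.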

How the data were processed

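RNA-Seq was analysed for 12 libraries. The authors trimmed reads at base quality 20, mapped them with Bowtie2 2.1.0 to the NC12 assembly and deposited raw counts per gene; the counting tool and its use of strand are not given in the sources used here. The deposited DESeq outputs (means, fold changes and p-values of the authors' comparisons) were not used.

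All 12 columns entered 1 fit of 4 groups (edgeR 4.0.16 with limma 3.58.1 and R 4.3.3; TMM factors, filterByExpr, robust quasi-likelihood test, Benjamini-Hochberg adjustment over 7746 genes). DESeq2 1.42.0 and limma voom were alternatives. The code was tested on simulated counts. A call had an adjusted p of at most 0.05 and a log2 value of at least 1.5. Depth was 17574263 to 56152963 counts, so that 3 counts came to 0.0534 to 0.182 CPM, which covers counting error only. Symbols and positions came from a RefSeq table of NC12 (9729 IDs matched).

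Members and lists were chosen with earlier results of these data known. Genes were named as the 15 most extreme calls in each direction also called by DESeq2 and without both wild-type replicates I, the 20 most significant calls kept in all fits, the 15 largest with a name, genes called in both Pi comparisons, genes the study names, and up to 4 members of each list. Product names and most lists were taken from the study's tables.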

Additional observations from a re-analysis of the deposited data

Results flagged for a closer look

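The effect of Pi differed between the strains, by the test of the interaction itself, for 297 genes in the negative and 10 in the positive direction. Among the genes whose own response passed both limits in each strain, the interactions were -3.72 for NCU00322, -4.19 for NCU03430, -3.27 for NCU03541, -3.71 for NCU06514, -3.79 for NCU07180, -5.12 for NCU07752, -3.77 for NCU07791 and -3.89 for NCU09570 (edgeR's quasi-likelihood test, 3 libraries per group). In all 8 genes the 3 libraries of *mus-52* high-Pi were below the 3 of *mus-52* low-Pi. The 3 of wild-type high-Pi were above the 3 of wild-type low-Pi. High-Pi and low-Pi libraries were apart in both strains for 62% of the negative calls and 7.14% of all genes tested. The 8 genes were chosen for their response in each strain, so this separation describes them and is no further test.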

How the results depend on the processing

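The 307 calls numbered 413 with DESeq2, 463 with voom and sample weights, 292 with RLE factors, 303 without a filter, 275 when genes needed 10 counts or more per library, 379 without both wild-type replicates I and 386 without replicate I of any group. Of the 307 genes, 155 negative and 0 positive ones were called in all of these tests and in all 12 fits that left out 1 library, the stricter filter on counts set aside. Positive calls moved from 10 to 28 with DESeq2, 46 with voom, 47 without both wild-type replicates I, 39 without replicate I of any group and 51 with the adjusted p alone. Leaving out 1 library gave 176 to 309 calls, 171 to 285 negative and 1 to 24 positive. The lowest totals were 176 without *mus-52* high-Pi replicate II, 182 without *mus-52* low-Pi replicate III and 190 without *mus-52* low-Pi replicate II. Without 1 wild-type library, positive calls were 24, 13 and 7 (low-Pi I to III) and 14, 8 and 16 (high-Pi I to III). Without 1 *mus-52* library they were 6, 1 and 2 (low-Pi I to III) and 4, 5 and 9 (high-Pi I to III).

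The replicate block gave 280 calls, 272 negative and 8 positive, and with the block NCU02880 (edgeR adjusted p = 0.0515), NCU06384 (0.0541), NCU08432 (0.059), *mus-53* (0.0541), *gh61-11* (0.0695) and NCU10009 (0.0824) were not called. Same-numbered libraries deviated together within the wild type (0.210 to 0.357) and less so within *mus-52* (0.0945 to 0.290), and between the strains their correlations were -0.157 to 0.0181, so the numbers did not pair all groups.

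Among negative calls, the genes past the limit in *mus-52* alone numbered 148 at 2-fold and 138 without both wild-type replicates I, those past it in the wild type alone 23, 11 and, among the calls of DESeq2, 9, those past it in neither strain 18 at 2-fold, and those in opposite directions 108 at 2-fold. The median interaction of ribosome biogenesis was -0.26 with voom, -0.23 without both wild-type replicates I and -0.23 without replicate I of any group, and -0.22 to 1.90 when 1 library was left out. For Pi sensing it was 0.35 with voom, 0.36 without both wild-type replicates I and 0.18 to 0.47 when 1 library was left out, and for Pi acquisition 0.16 with the stricter filter and -0.61 to 0.14 when 1 library was left out. The causes were not tested. Of 61 named calls, 44 were kept under every alternative and none changed sign. With 3 libraries per group, an uncalled gene was not shown to respond alike in both strains.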

Other observations

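Enzymes of carbon and lipid metabolism outside the named genes, chosen after their values were seen, were also among the negative calls. The aldose reductase NCU01233, of a class that reduces sugars to polyols, had 17.9, 15.3 and 13.1 CPM in *mus-52* high-Pi and 25.5, 25.3 and 33.8 in *mus-52* low-Pi, against 92.0, 129 and 129 in wild-type high-Pi and 25.3, 53.4 and 53.02 in wild-type low-Pi. Its interaction was -2.28 (edgeR adjusted p = 0.00618), and wild-type high-Pi was above all other libraries. L-xylulose reductase (NCU09041), an enzyme of pentose use in fungi, had 9.02, 13.1 and 6.597 CPM in *mus-52* high-Pi and 24.3, 25.9 and 30.6 in *mus-52* low-Pi, against 92.5, 78.1 and 81.9 in wild-type high-Pi and 31.8, 47.9 and 53.4 in wild-type low-Pi, with an interaction of -2.42 (edgeR adjusted p = 0.00313). The neutral ceramidase NCU10359, which splits ceramide, fell in *mus-52* alone, with 1.48, 1.48 and 1.39 CPM in *mus-52* high-Pi and 7.77, 5.26 and 5.28 in *mus-52* low-Pi, against 15.4, 17.4 and 19.6 in wild-type high-Pi and 9.84, 19.5 and 17.7 in wild-type low-Pi (interaction -2.23, edgeR adjusted p = 0.00554).

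*al-1* (NCU00552), the phytoene desaturase gene of carotenoid synthesis, had 997, 721 and 964 CPM in *mus-52* high-Pi and 379.9, 157 and 239 in *mus-52* low-Pi, against 200.1, 95.0 and 153 in wild-type high-Pi and 815, 120.2 and 119 in wild-type low-Pi. Its interaction of 3.02 missed the threshold (edgeR adjusted p = 0.0935), but *al-1* was called by DESeq2 (adjusted p = 0.00928) and without both wild-type replicates I, where the interaction was 1.77 (edgeR adjusted p = 0.0471). The media did not overlap in *mus-52*, and the wild-type libraries overlapped, with replicate I of low-Pi the highest. The conidiation gene *con-13* (NCU07324) had an interaction of -3.78 (edgeR adjusted p = 0.06) and was called by DESeq2 at -3.72 and without both wild-type replicates I at -2.28.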
